A study of Bos taurus with 10 samples.

Results

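The proteasome genes were read from microarrays of skeletal muscle of 10 Hanwoo cattle, a Korean native beef breed. They were chosen by name: a probe set had to carry exactly 1 gene symbol in the platform annotation, and that symbol had to start with PSMA, PSMB, PSMC, PSMD, PSME, PSMF or PSMG and a number. This gave 46 probe sets for 40 genes, out of 9155 named genes on the array, and the brightest probe set stood for each gene. The rule itself used no measured value other than this brightness, but it was set with earlier results of these data known. One of the 40, PSME3IP1, is a partner protein of the activator PSME3 and not a subunit, and it is kept apart below. PSMA2, PSMD3, PSMD7, PSMD8, PSMD12 and PSME3 were not analysed here.

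Each sample is labelled as skeletal muscle, the series title names the longissimus dorsi (a back muscle sold as loin) for all of them, and only the first sample's label adds an age, about 2 years. All 10 samples form 1 group with no treatment, and they are numbered 1 to 10 as in their titles. The stated purpose was a correlation of expression with meat traits, but trait values were not used here, so what can be given is how high each gene was, how far it varied and what it varied with. That every sample came from its own animal follows only from numbering and the study's description, so the p-values measure only the spread between these samples, which may be technical.

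The proteasome degrades proteins that carry ubiquitin chains. Its barrel, the 20S core, is built of outer rings of alpha subunits, which form the gate, and inner rings of beta subunits, of which PSMB5, PSMB6 and PSMB7 hold the cutting sites. The 19S cap has a ring of ATPases that unfold the substrate and non-ATPase subunits that bind ubiquitin and remove it. In cells exposed to interferon gamma, PSMB8, PSMB9 and PSMB10 take the places of PSMB5, PSMB6 and PSMB7 and yield the immunoproteasome, which favours peptides for MHC class I presentation. In skeletal muscle the proteasome breaks down contractile proteins during atrophy, after ubiquitin ligases such as FBXO32 have marked them.

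Values are given as log2 levels, that is log2 of the deposited intensity plus 16 after quantile normalization, which gives every array the same distribution. The 9 muscle fibre markers measured, such as ACTA1, CKM and MYH7, had means from 15.34 to 16.05, at the top of the range. Of the markers of other cell types, 10 of 18 for leukocytes (55.6%), 12 of 16 for adipocytes (75%), 9 of 10 for connective tissue (90%) and 6 of 8 for endothelium (75%) passed the filter on dim probe sets, which 68.5% of all named genes passed. Animal 5 stood apart on a control that does not come from the tissue. Bacterial poly(A) control RNAs are read by probe sets at both ends, and the log2 difference of the 3' end over the 5' end, averaged over 9 probe set pairs, was 2.34 in animal 5, against 0.93 to 1.24 in the other 9 animals. In 7 of the 9 pairs animal 5 had the highest difference, but several pairs read the same control RNA. In a pair for the dap control it lay inside the range of the others, at 1.77. In the pair for the trp control it was the lowest, at -1.36. A larger difference means relatively less signal from the 5' end. Results that rest on animal 5 are therefore also given without it.

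All 40 proteasome genes passed the filter, a mean above the median of all probe sets, as did 6271 of the 9155 named genes. Their median SD between animals was 0.32, from 0.14 for PSMC1 to 0.70 for PSMB10, beside 0.36 over all tested genes. An SD above 0.5 was found for 8 of the 40 (20%), against 22.1% of all tested genes. Without animal 5 none of the 40 had an SD above 0.5, against 14.6% of all genes, and the median SDs were 0.22 and 0.31. The 975 tested genes with means between the quartiles of the proteasome genes, 10.80 and 12.46, had a median SD of 0.33, and 0.25 without animal 5. Across the other 9 animals the distance from the lowest to the highest value of a proteasome gene was between 1.21-fold, for PSME1, and 3.10-fold, for PSMB10, with a median of 1.55-fold.

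**Figure D1:**
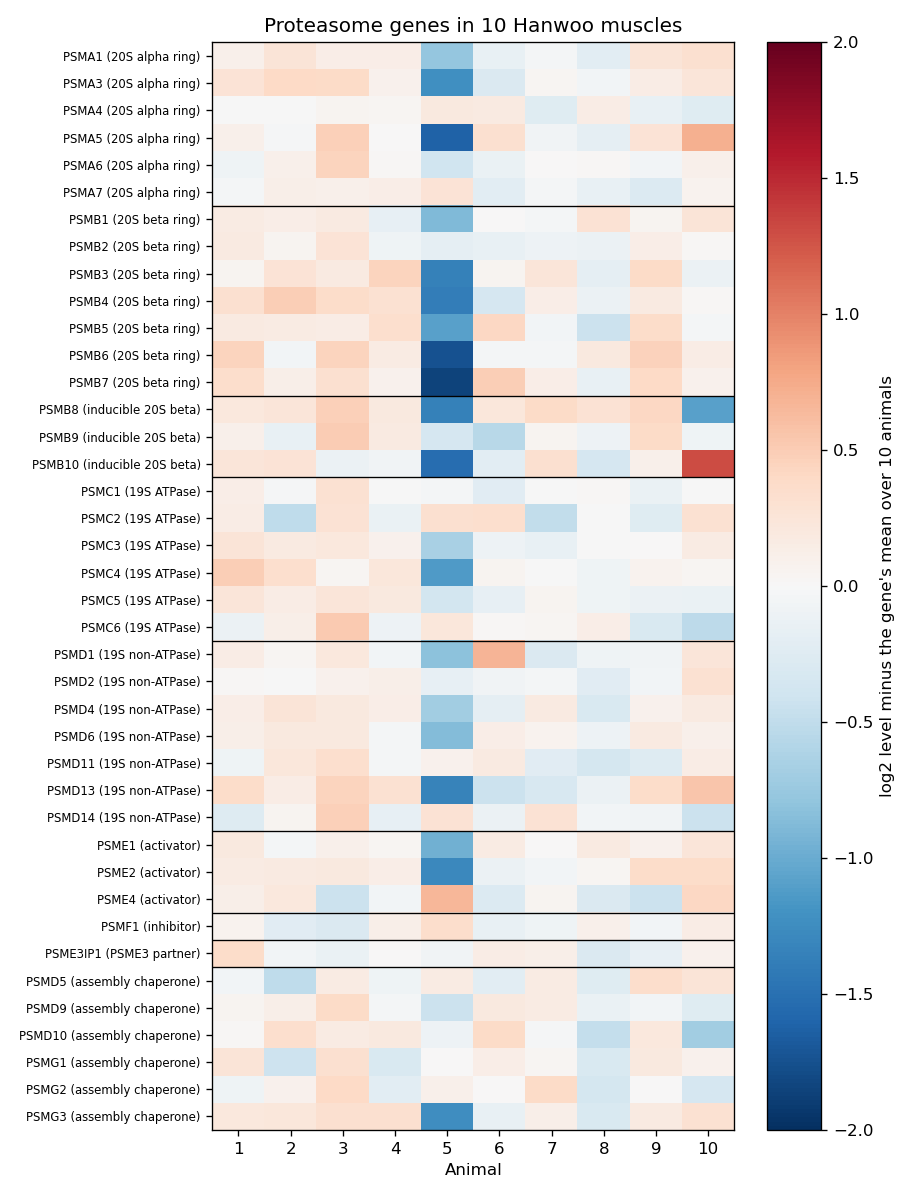
Each row is a proteasome gene, grouped by its role, and each column an animal; colour gives the log2 level minus the gene's mean over the 10 animals. The column of animal 5 is the lowest value for 24 of the 40 genes, including all 7 of the 20S beta ring.

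Among the alpha ring subunits, 4 of 6 were lowest in animal 5 and 2 were highest there. PSMA5 stood at 11.14 in animal 5, against 12.58 to 13.47 in the other 9 animals, with an SD of 0.63 over all 10 and 0.29 without animal 5. PSMA3 stood at 11.62 there, against 12.56 to 13.25 elsewhere. Animal 5 lay outside the range of the rest for both genes by more than the width of that range. PSMA1 followed with 10.89 in animal 5 against 11.45 to 11.99, and PSMA6 with 13.63 against 13.90 to 14.48. PSMA4 and PSMA7 behaved otherwise. PSMA4 ranged from 10.59 to 11.02 with a median of 10.85 (SD 0.16), and PSMA7 from 13.88 to 14.42 with a median of 14.17 (SD 0.17), and in both the top value came from animal 5. The alpha ring thus held members at both ends of the spread.

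The 7 constitutive beta ring subunits were each lowest in animal 5. PSMB7, the trypsin-like site, stood at 10.36 in animal 5, with a median of 12.33 and a highest value of 12.70 over all animals. PSMB6, the caspase-like site, stood at 10.25 in animal 5, with a median of 12.16 and a highest value of 12.45. PSMB5, the chymotrypsin-like site and the main target of proteasome inhibitor drugs, stood at 11.86 in animal 5, with a median of 13.10 and a highest value of 13.36. The lowest values of the other 9 animals were 12.06 for PSMB7, 11.95 for PSMB6 and 12.52 for PSMB5, so animal 5 did not overlap with them. The non-catalytic subunits PSMB3 and PSMB4 stood at 10.88 and 11.53 in animal 5, against at least 12.06 and 12.57 elsewhere. PSMB1 stood at 11.49 in animal 5, against 12.21 to 12.66. PSMB2 was the exception in size, with 11.64 in animal 5 and 11.67 to 12.10 elsewhere. Without animal 5 the SDs of the 3 catalytic subunits were 0.20 for PSMB7, 0.22 for PSMB6 and 0.26 for PSMB5, where they had been 0.68, 0.65 and 0.46.

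The inducible beta subunits were the members that still varied most among the other 9 animals, apart from PSMB9. PSMB10 ranged from 8.73 in animal 5 to 11.56 in animal 10, with a median of 10.27 (SD 0.70, and 0.48 without animal 5). PSMB8 was at 6.45 in animal 5 and 6.71 in animal 10, against 7.99 to 8.27 in the remaining 8 animals (SD 0.65, and 0.47 without animal 5). The 2 genes thus parted in animal 10, where PSMB10 was highest and PSMB8 second lowest. PSMB9 was lowest in animal 6 at 6.92 and highest in animal 3 at 7.98, with a median of 7.46 (SD 0.32). After normalization its value in animal 5, 7.14, was the second lowest and lay inside the range of the others, unlike that of its constitutive counterpart PSMB6. As deposited, however, the PSMB9 intensity was lowest in animal 5, at 116.6, close to the median of that array, 111.09. The probe sets of PSMB8 and PSMB9 were dim, with median deposited intensities of 248 and 163 where the array medians lay between 111 and 134. Both low PSMB8 values lay below the median of their own array, with deposited intensities of 66.9 in animal 5 and 101 in animal 10, as did the PSMB9 value of animal 6, at 120.03. PSMB10 had 399 in animal 5 and was above the array median in all 10 animals. The difference in log2 level between an inducible subunit and its counterpart had an SD of 0.47 for PSMB8 minus PSMB5, 0.53 for PSMB9 minus PSMB6 and 0.52 for PSMB10 minus PSMB7. Relative to its own mean it was furthest up at 1.42 for PSMB9 minus PSMB6, in animal 5, and furthest down at -1.05 for PSMB8 minus PSMB5, in animal 10. The first came mostly from PSMB6, whose deviation from its own mean in animal 5 was -1.75, while that of the dim PSMB9 was -0.33. The second rests on the dim value of PSMB8 in animal 10.

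**Figure D2:**
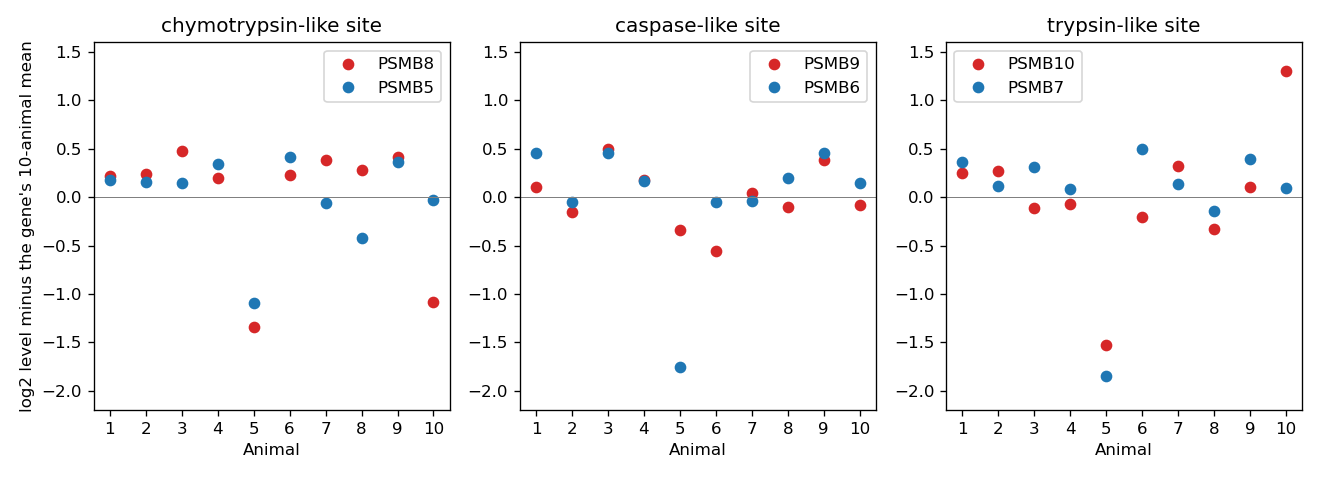
Each panel shows, for 1 cutting site, the inducible subunit (red) and the constitutive subunit (blue); the x axis is the animal, with no order implied, and the y axis the log2 level minus that gene's mean over 10 animals. PSMB5, PSMB6 and PSMB7 are lowest in animal 5, and in animal 10 PSMB10 is at 11.56 while PSMB8 is at 6.71 on the log2 scale.

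The 6 ATPases of the cap had a median SD of 0.28, and 0.18 without animal 5. PSMC1 had the smallest SD of all members, 0.14, with values from 12.15 to 12.68 and a median of 12.37. PSMC4 was the ATPase that varied most, with 10.07 in animal 5, a median of 11.23 and a highest value of 11.68 (SD 0.43, and 0.19 without animal 5). PSMC3 and PSMC5 were also lowest in animal 5, at 12.95 and 12.05, against lowest values of 13.45 and 12.26 in the others. PSMC2 and PSMC6 were not: PSMC2 ranged from 12.61 in animal 2 to 13.46 in animal 6, and PSMC6 from 11.42 in animal 10 to 12.46 in animal 3. The values of animal 5 were the second highest for both genes.

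Of the 7 non-ATPase subunits of the cap, 4 were lowest in animal 5. PSMD13, a lid subunit, stood at 8.63 in animal 5, against 9.53 to 10.52 elsewhere (SD 0.57, and 0.35 without animal 5). PSMD4, a receptor for ubiquitin chains, stood at 11.66 in animal 5, against 12.04 to 12.61, and the lid subunit PSMD6 at 10.27, against 11.04 to 11.34. PSMD1, a large scaffold subunit of the base, had 11.01 in animal 5 and its highest value, 12.52, in animal 6. The other 3 did not share this. PSMD2, another base scaffold, ranged only from 12.31 to 12.83 (SD 0.15). PSMD14, the enzyme that removes ubiquitin from the substrate, was lowest in animal 10 and reached 12.92 in animal 3 (SD 0.28), and PSMD11 ranged from 12.71 in animal 8 to 13.39 in animal 3.

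PSME1 and PSME2 together form the interferon-inducible activator PA28, and both were lowest in animal 5. PSME1 stood at 10.01 in that animal, against 10.94 to 11.21 elsewhere, and PSME2 at 9.63, against 10.80 to 11.29. PSME1 had an SD of 0.35 over 10 animals but only 0.09 without animal 5, the smallest of the 40 in that set. The third activator, PSME4, a large single-chain cap, went the other way in animal 5, where it was highest at 13.09 against 11.99 to 12.84 in the others. So did PSMF1, known as an inhibitor of the 20S core in the test tube, at 11.06 against 10.42 to 10.85. PSME3IP1 ranged from 8.84 to 9.49 with a median of 9.10 (SD 0.19), and animal 5 lay inside that range at 9.06.

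Assembly chaperones, which help the core and the cap to form and are absent from the finished particle, had a median SD of 0.26, and 2 of the 6 were lowest in animal 5. PSMG1 and PSMG2, the partners that start the alpha ring, ranged from 10.71 to 11.44 and from 11.55 to 12.30, with animal 5 inside both ranges. PSMG3, which joins a later alpha ring step, stood at 8.29 in animal 5, against 9.22 to 9.85 elsewhere. The base chaperones differed among themselves: PSMD9 was lowest in animal 5 at 9.61, PSMD10 was lowest in animal 10 at 8.70 and PSMD5 lowest in animal 2 at 10.05. Without animal 5, PSMD10 had the largest SD of the 6 chaperones, 0.37.

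Counted over all members, animal 5 held the lowest value of 24 of 40 genes (60%), against 27.6% of all tested genes, and the highest value of 4 (10%), against 21.1%. A level more than 1 below the gene's own mean on the log2 scale was found there for 13 of 40 (32.5%), against 9.03% of all genes. Animal 10 had 1 such gene, PSMB8 (2.5%, against 2.69% of all genes), and the other 8 animals had none, against between 0.51% and 2.28% of all genes. By role, the lowest value fell in animal 5 for 7 of 7 beta ring, 4 of 6 alpha ring, 4 of 7 non-ATPase, 3 of 6 ATPase, 2 of 3 inducible beta, 2 of 3 activator and 2 of 6 chaperone genes, and for neither PSMF1 nor PSME3IP1. The median deviation from the gene mean in animal 5 was -1.35 for the beta ring, -1.34 for the inducible beta genes, -0.96 for the activators, -0.69 for the non-ATPases, -0.59 for the alpha ring, -0.21 for the ATPases and -0.05 for the chaperones. The deviation of PSMF1 there was 0.36, and that of PSME3IP1 -0.07. Over all tested genes it was -0.06. Animal 3 was the one with most high values, the top value of 11 of 40 (27.5%, against 10.9% of all genes), with 36 of 40 genes above their mean and a median deviation of 0.23. Over all tested genes 44.2% lay below their mean in animal 3, and the median deviation was 0.05. Animal 8 was on the low side, with 30 of 40 genes below their mean, against 46.2% of all genes. Its median deviation was -0.11, against 0.02 over all genes. Leukocyte marker signal also moved with animal 5, where 8 of the 10 tested markers were lowest and their mean deviation was -0.97, against -0.49 to 0.78 in the others. Fits on the leukocyte markers and on the poly(A) control difference are given below. Both measures were most extreme in animal 5, so their parts in its low proteasome values cannot be told apart. In whole muscle, fewer cells of a type and less RNA per cell cannot be told apart either.

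**Figure D3:**
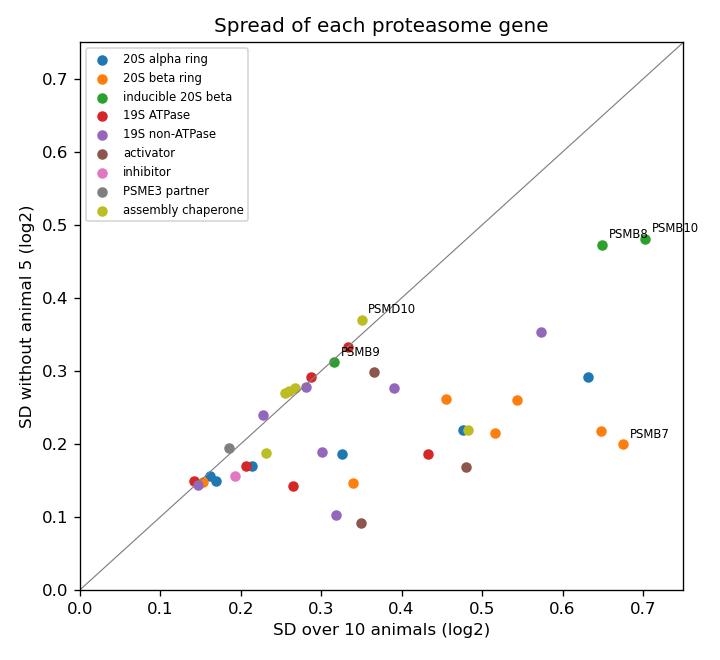
Each point is 1 proteasome gene, coloured by role, with its SD of log2 level over 10 animals on the x axis and its SD without animal 5 on the y axis; the line marks equal values. PSMB7, at 0.68 and 0.20, lies far below the line, while PSMB9, at 0.32 and 0.31, lies close to it.

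Pairwise correlations among the proteasome genes were set beside those of all tested genes. Over the 780 pairs of the 40 genes the median Pearson r across the 10 animals was 0.26, with 66.8% of pairs above 0 and 37.8% above 0.5, while over all pairs of the 6271 tested genes the median was 0.00, with 50.4% above 0 and 11.9% above 0.5. Without animal 5 the median over the proteasome pairs was 0.17, with 66.9% above 0 and 19.6% above 0.5, beside 50.1% and 10.3% over all pairs. These are descriptions over pairs that share genes and arrays, and no test was made on them. In the beta ring all 21 pairs were above 0, with a median r of 0.81, which was 0.27 without animal 5. The alpha ring had a median r of 0.01, and 0.29 without animal 5, and PSMA4 kept a negative median r with the other 39 genes in both sets, -0.35 and -0.15. For the 19S ATPases the 2 values were 0.18 and 0.28, and for the non-ATPases 0.40 and 0.26. The 5 interferon-inducible genes PSMB8, PSMB9, PSMB10, PSME1 and PSME2 had a median r of 0.56 among themselves, and 0.05 without animal 5.

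Members differed in how far they followed the rest. PSMB4, PSMB7, PSMC3 and PSMD6 had the highest median r with the other 39, all 0.71 after rounding. PSMF1 had the lowest, -0.56, followed by PSME4 at -0.44 and PSMA4 at -0.35. Without animal 5 the highest were PSMG3 at 0.42 and PSMD4 at 0.39, and PSMB2 at 0.35 had 36 of its 39 r above 0. PSMB7 had 0.12 in that set, and PSMF1, at -0.19, was again the lowest. PSME1 and PSME2 had r = 0.93 over 10 animals and 0.15 without animal 5. PSMB6 and PSMB9, in contrast, had r = 0.58 over 10 animals and 0.77 without animal 5.

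**Figure D4:**
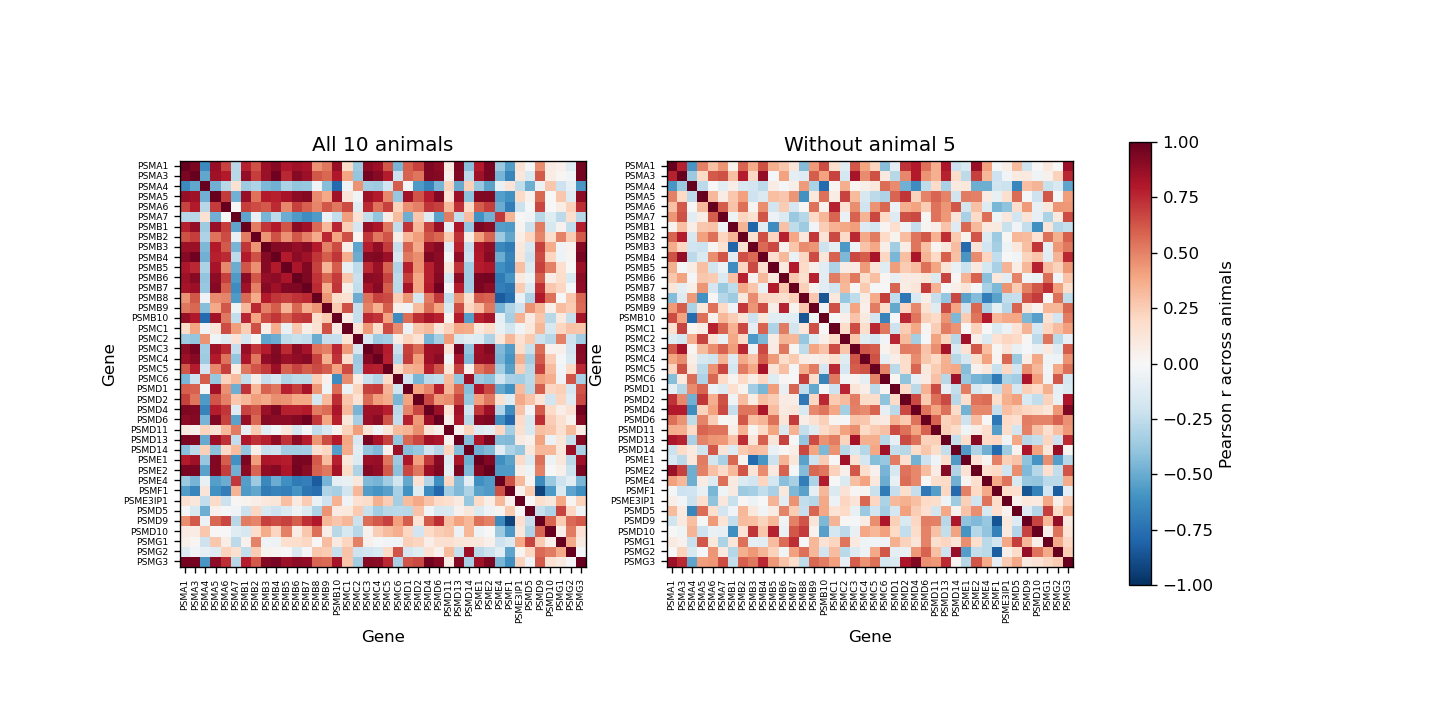
Both panels show Pearson r across animals for each pair of the 40 proteasome genes, in the same order by role on both axes, with red above 0 and blue below 0. The block of the beta ring has a median r of 0.81 over 10 animals (left) and 0.27 without animal 5 (right).

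A second probe set was available for 6 of the 40 genes, and it repeated the brightest one in only some of them. PSMD4 had r = 0.95 between its 2 probe sets (0.85 without animal 5), PSMB2 0.80 (0.80) and PSMC6 0.61 (0.60). PSMD6 had 0.10, PSMC5 0.05 and PSMC2 -0.47. These r over 10 animals are given as descriptions of the probe sets. For PSMC2 the dimmer probe set was lowest in animal 5, at 11.73 against 12.53 to 13.10, where the brighter one was second highest at 13.45. For PSMD6 the order was the other way: the brighter probe set was lowest in animal 5 and the dimmer one, at 9.11, lay between the 8.56 and 9.51 of the others. PSMB2, whose brightest probe set hardly moved, had 10.23 in animal 5 on its second probe set, against 10.62 to 11.45. PSMC5 was lowest in animal 5 on its brighter probe set, at 12.05, but the dimmer one, at 8.28, lay between the 7.73 and 8.75 of the others. Both probe sets of PSMD4 were lowest in animal 5, and neither of PSMC6 was. The statement that a member was low or high in animal 5 therefore belongs to a probe set, and could be checked on a second one for these 6 genes.

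In a limma fit of every tested gene on the poly(A) control difference, 18 of the 40 proteasome genes fell and none rose at an adjusted p below 0.05, where 10.2% of the 6271 genes fell and 3.84% rose. They were 6 of the 7 beta ring genes, PSMB2 being the exception, together with PSMA1, PSMA3, PSMA5, PSMC3, PSMC4, PSMD4, PSMD6, PSMD13, PSME1, PSME2, PSMB10 and PSMG3. The slope of PSMB7, -0.61 in log2 units for each SD of the control difference, was the largest (SE 0.10, adjusted p = 0.00305), followed by PSMB6 at -0.59 (SE 0.10, adjusted p = 0.00272), PSMB10 at -0.56 (SE 0.14, adjusted p = 0.019) and PSMA5 at -0.55 (SE 0.11, adjusted p = 0.00549). PSMB4 at -0.50, PSMD13 at -0.48, PSMB3 at -0.46 and PSME2 at -0.46 came next, with limma adjusted p = 0.00323, 0.0133, 0.00516 and 0.0024. PSME4 and PSMF1 had positive slopes, 0.20 and 0.13, that did not pass (adjusted p = 0.222 and 0.259). The covariate of animal 5 lies far from the other 9. Without that animal 0 of 40 members and 0 of 6275 genes passed, with no member and 397 genes at an unadjusted p below 0.05 in limma, and the slope of PSMB7 was 0.13. A Spearman correlation per gene over all 10 animals likewise called 0 members, and 3 genes in all.

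**Figure D5:**
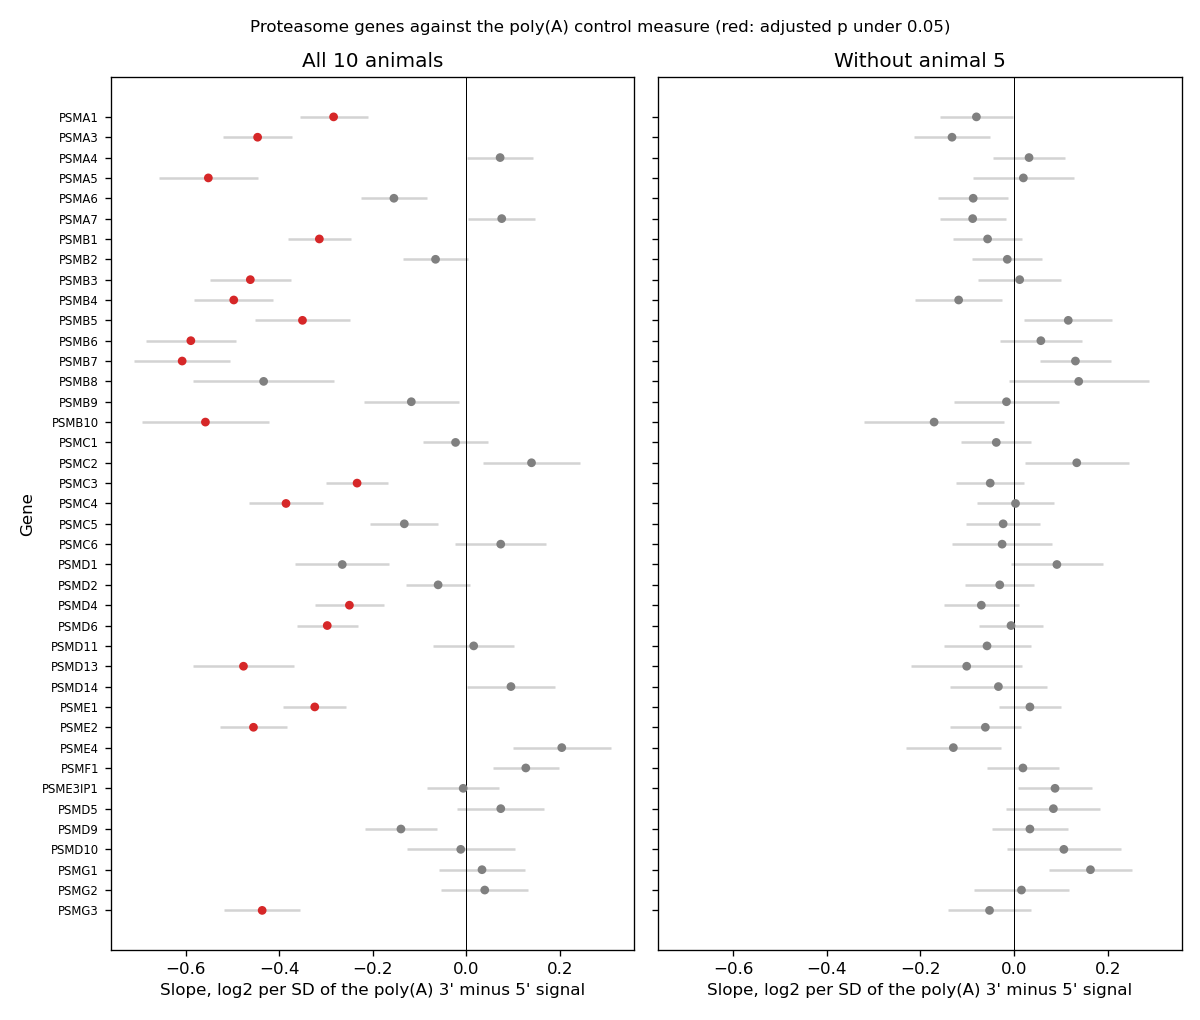
Points give each proteasome gene's limma slope, in log2 per SD of the poly(A) control difference between ends, and bars its standard error, over all 10 animals (left) and without animal 5 (right); red marks an adjusted p below 0.05. On the left 18 genes are red, all with slopes below 0, and on the right none is.

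The inducible subunits act in antigen presentation, so the members were also fitted on that pathway. A score of 8 MHC class I presentation and interferon-gamma response genes, among them B2M, BOLA and TAP1, called 0 of the 40 members in limma, and 0% of 6263 genes in either direction, with 2 members and 600 genes at an unadjusted p below 0.05. These 2 were PSME4, with a slope of -0.29 (SE 0.09, adjusted p = 0.292), and PSMB8, with 0.42 (SE 0.15, adjusted p = 0.39), followed by PSMD9 at 0.15 (adjusted p = 0.606). Without animal 5, 3 members had an unadjusted p below 0.05, against 640 genes, and PSMB10 led them with a slope of -0.36 (limma adjusted p = 0.414). With the filter on dim probe sets at the 75th percentile the score was built of fewer genes. There 5 of 38 members rose with it, where 280 of 3724 genes rose and 58 fell. The fit at that filter was not run without animal 5. With the level of PSMB9 itself as covariate, 0 of 39 members and 0% of 6270 genes passed in either direction, with 3 members and 487 genes at an unadjusted p below 0.05. The 3 were PSMD13 (0.38, adjusted p = 0.63), PSMB4 (0.33, adjusted p = 0.635) and PSMB6 (0.37, adjusted p = 0.635), none of them an inducible subunit. Without animal 5 there were 2 such members, PSMD13 and PSMB6, against 388 genes. At the 75th percentile filter PSMB9 drops out, and PSMB10, itself lowest in animal 5, took its place. On its level 6 of 37 members rose, where 153 of 3727 genes rose and 77 fell, and this was not run without animal 5. TAP1, the peptide transporter gene, was lowest in animal 10 at 7.29, as its partner TAP2 was at 8.53, and animal 10 also held the low PSMB8 value of 6.71. BOLA, of the same score, was above its mean in animal 10, at 14.07. B2M, the light chain of MHC class I, stood at 12.56 in animal 5, against 14.05 to 14.72 in the others. The score genes did not move together there: 3 of the 8 were lowest in animal 5, against 27.6% of all tested genes. ERAP1 was highest in that animal, at 8.57, and TAP2, UBE2L6 and GBP1 lay above their means.

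With 3 further scores no member passed at this filter. The leukocyte score of 10 genes called 0 of 40 members in limma, where 17 genes (0.272%) rose and 1 (0.016%) fell, and 11 members and 1112 of 6261 genes had an unadjusted p below 0.05. PSMB7 (slope 0.53, adjusted p = 0.13), PSMB5 (0.36, adjusted p = 0.164) and PSMA5 (0.44, adjusted p = 0.191) had the smallest p. Over all 10 animals 31 of the 40 slopes were above 0, against 54.4% of all genes. Without animal 5, whose leukocyte score was the lowest, no member had an unadjusted p below 0.05, against 440 genes. There 15 of 40 slopes were above 0, and the median slope was -0.03, against -0.003 over all genes. With the filter on dim probe sets at the 75th percentile, 11 of 38 members rose with the leukocyte score, where 357 of 3727 genes rose and 158 fell. That score too was built of fewer genes, and the fit was not run without animal 5. The adipocyte score of 12 genes, read because marbling fat lies within this muscle, called 0 of 40, where 0.032% of 6259 genes rose and 0% fell, with 2 members and 391 genes at an unadjusted p below 0.05. PSME4 (-0.24, adjusted p = 0.795), PSMB8 (0.36, adjusted p = 0.795) and PSMB3 (0.27, adjusted p = 0.812) led here. Without animal 5 no member had an unadjusted p below 0.05, against 381 genes. The ubiquitin conjugation and atrophy score of 12 genes, among them FBXO32 and KLF15, called 0 of 40, and 0% of 6259 genes in either direction, with 6 members and 809 genes at an unadjusted p below 0.05. PSMB4 (0.37, adjusted p = 0.323), PSMA3 (0.32, adjusted p = 0.334) and PSMD13 (0.36, adjusted p = 0.354) led these. Without animal 5 that was 1 member, PSMG1, against 627 genes.

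Genes that work around the proteasome were read beside it. Of 20 measured and tested genes for its assembly, ubiquitin shuttling, transcription and docking, 4 were lowest in animal 5 (20%, against 27.6% of all tested genes) and 7 highest (35%, against 21.1%), and the median SD was 0.39, and 0.23 without animal 5. On the poly(A) control difference, 3 of 20 fell and 2 rose in limma, where 10.2% of all genes fell and 3.84% rose, and without animal 5 none of the 20 passed. POMP, the chaperone of beta ring assembly, stood at 11.67 in animal 5, against 12.76 to 13.12 in the others, and fell by 0.40 log2 per SD of the control difference (adjusted p = 0.00388). ADRM1, a ubiquitin receptor of the cap, stood at 8.45, against 9.29 to 10.19, and fell by 0.45 (adjusted p = 0.00985). UFD1, a cofactor of the unfoldase VCP, fell by 0.31 (adjusted p = 0.0312). The ubiquitin ligase gene UBE3A, at 12.70 in animal 5 against 11.19 to 11.86, rose by 0.39 (adjusted p = 0.00446), and NFE2L2, a stress response transcription factor, rose by 0.34 (adjusted p = 0.027). All 5 calls rest on animal 5: without it the slopes were 0.03 for POMP, -0.14 for ADRM1, 0.08 for UFD1, 0.11 for UBE3A and -0.05 for NFE2L2, with limma adjusted p between 0.899 and 0.992. NFE2L1, the factor that raises proteasome gene transcription when proteasome activity is blocked, had 13.17 in animal 5, inside its range of 12.74 to 13.39 (SD 0.20). ADRM1 had the largest SD of this list at 0.52, then TXNL1 at 0.49 and UBQLN4 at 0.45, and PITHD1 (0.12), UCHL5 (0.13) and RAD23B (0.18) the smallest. In the fits on the 4 list scores and on PSMB9, 0 of the 20 passed.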

How the data were processed

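Poly(A) RNA from 10 muscle samples was hybridised to GeneChip Bovine Genome Arrays, a 1-colour design, per the labels. The authors deposited a single intensity on a linear scale for each probe set of an array; which software made it is not stated in the labels. Without the lowest and highest 2% of probe sets, their mean was 500.177 to 500.203 on every array, so a common scaling was already applied. The number of arrays limits the precision. Values were turned into log2(intensity + 16), which understates changes of dim genes, and quantile normalized without the 112 control probe sets, because the array medians spanned 0.24. Of 24016 probe sets, 13292 had 1 gene symbol, 86 several and 10638 none listed. All 40 proteasome symbols matched the ARS-UCD2.0 gene table, which was used for names only.

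Each covariate was put in SD units and fitted to all tested genes by limma (3.58.1, under R 4.3.3), two-sided, with Benjamini-Hochberg adjustment over all of them at 0.05. A list score is the mean deviation of its tested genes, and list genes are left out of their own score's counts. The fits were also run on simulated data, with independent noise for each gene and slopes of 0.5 or 1 added to 200 genes. Those data held no shift shared by many genes in a single array. They therefore cannot show how the fits behave with an array such as that of animal 5. Members and lists were chosen with earlier results of these data known. Named were the 6 members with the largest and the 6 with the smallest SD, the catalytic pairs, the activators and PSMF1, up to 8 called members per fit and direction or otherwise the 3 with the smallest p, the genes with a second probe set, and of the associated genes the 3 at either end of SD and those called. Other members are described because their role is, chosen after their values were seen. Alternatives were the deposited scaling, median centring, pseudocounts of 1 and 64, a filter at the 75th percentile or none, averaging the probe sets of a gene, leaving out each animal or animals 3 and 7, the poly(A) control difference as a further covariate and Spearman correlation.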

Additional observations from a re-analysis of the deposited data

Results flagged for a closer look

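In 15 of the 40 proteasome genes the value of animal 5 lay so far below the other 9 that the gap to its nearest neighbour exceeded Dixon's 95% critical share of the whole range, which chance passes in about 1 in 20 groups. The share was 37.5%, against 16.7% of all 6271 tested genes with such a value in any animal and 11.9% with one in animal 5. The log2 levels of animal 5 were 10.89 for PSMA1, 11.62 for PSMA3 and 11.14 for PSMA5 in the alpha ring. In the beta ring they were 11.49 for PSMB1, 10.88 for PSMB3, 11.53 for PSMB4, 10.25 for PSMB6 and 10.36 for PSMB7. In the cap they were 12.95 for PSMC3, 10.07 for PSMC4, 8.63 for PSMD13 and 10.27 for PSMD6. The activator genes PSME1 and PSME2 had 10.01 and 9.63, and the chaperone gene PSMG3 had 8.29. The largest gap, 0.77 of the range, belonged to PSMB6, followed by PSME1 at 0.768. The poly(A) control difference between 3' and 5' ends, 2.34 in animal 5, met the same limit. No other animal had such a value in any of the 40 genes.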

How the results depend on the processing

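With each animal left out in turn the median SD of the 40 genes was between 0.22 (without animal 5) and 0.34, and the median pairwise r between 0.17 (without animal 5) and 0.31. No other alternative took the median SD or the median r outside these ranges. The 18 members called on the poly(A) control difference were between 0 (without animal 5) and 19 with 1 animal left out, and 0 with Spearman correlation. Without animal 5 the slopes of 4 of the 8 largest changed sign; with 1 animal left out they lay between -0.66 and 0.13 for PSMB7, -0.65 and 0.0573 for PSMB6, -0.61 and 0.0198 for PSMA5, and -0.50 and 0.012 for PSMB3, each highest without animal 5. With the filter at the 75th percentile the scores were built of fewer genes, and PSMB10 stood in for PSMB9, which failed that filter. There 5 of 38 members rose with the MHC class I score, 11 of 38 with the leukocyte score and 6 of 37 with the PSMB10 level, where 280 genes rose and 58 fell of 3724, 357 rose and 158 fell of 3727, and 153 rose and 77 fell of 3727. Whether these calls rest on animal 5 was not tested. At the main filter the counts of 0 on the 4 list scores and on PSMB9 stayed 0, at the lowest and the highest, with each animal left out. Leaving out the dim trp pair of poly(A) controls, chosen after seeing the data, gave 19 members called. No paired analysis was possible because the samples form 1 group.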
